A study of Mus musculus with 8 samples.

Results

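Atherosclerotic vessels produce oxidants from a small set of dedicated enzymes, and 9 genes of these enzymes were followed here among the 21859 genes counted in the aorta. The members were chosen by gene symbol as listed oxidant-producing enzymes. *Cybb*, *Cyba*, *Ncf1*, *Ncf4* and *Rac2* encode parts of the phagocyte NADPH oxidase. *Nox1* and *Nox4* encode the catalytic subunits of oxidases of the vessel wall, *Nos2* encodes inducible nitric oxide (NO) synthase and *Xdh* encodes xanthine oxidoreductase. All 9 symbols were found in the files. Aortas of 4 ApoE-/- mice and 4 wild-type (WT) C57BL/6 mice were compared. All mice were male, 40 weeks old and fed a normal chow diet, and the knockout of apolipoprotein E is the only difference in genotype that the labels give. ApoE-/- mice lack this protein in every tissue, so a difference cannot be assigned to 1 cell type. Each aorta was sequenced whole as 1 library of stranded, ribodepleted total RNA, in which more cells of a type and more RNA per cell cannot be told apart.

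In the phagocyte oxidase, a membrane pair of *Cybb* (gp91phox, also called NOX2) and *Cyba* (p22phox) meets cytosolic *Ncf1* (p47phox), *Ncf4* (p40phox) and the GTPase *Rac2* on activation, and the complex then passes electrons from NADPH to oxygen to give superoxide. *Nox4* shares the p22phox partner but works without the cytosolic subunits and is the main NADPH oxidase of vascular smooth muscle, where *Nox1* is also known. Inducible NO synthase makes large amounts of NO in activated macrophages, and xanthine oxidoreductase acts in purine breakdown and can release superoxide and hydrogen peroxide.

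Between 23240995 and 23940156 read pairs were counted on genes in ApoE-/- mice and between 18375898 and 21664598 in WT mice. Values are CPM, counts relative to the library total after TMM scaling, and differences between genotypes are log2 fold changes given with their SE. In a library, 3 counts corresponded to 0.122 to 0.166 CPM. *Apoe* itself had 14.7 to 36.3 CPM in the ApoE-/- libraries and 536 to 857 CPM in the WT libraries, so each library carried the level of its labelled genotype. Replicate 1 of the ApoE-/- mice stood apart. Its score for contractile smooth muscle, the mean log2 CPM of 10 marker genes, was 8.41, below the range of 9.72 to 10.59 in its group and of 9.63 to 10.54 in WT aortas. Where a call in edgeR turned on this library, the value without it is also given. Heart muscle markers were also unequal, with summed levels of 160 to 342 CPM in ApoE-/- and 414 to 717 CPM in WT aortas. These sums included *Ryr2*, which overlapped, at 123 to 311 CPM in ApoE-/- and 192 to 335 CPM in WT aortas. The mean log2 CPM of the 8 tested markers averaged 2.47 in ApoE-/- and 5.41 in WT aortas, a difference of −2.94. The part of the heart muscle markers in the results was not tested.

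Of the 5 phagocyte oxidase genes, 4 lay higher in every ApoE-/- aorta than in any WT aorta, whereas the smooth muscle oxidase gene *Nox4* overlapped between the genotypes. In edgeR's quasi-likelihood test over all genes, *Ncf4* was the only member with an adjusted p under 0.05, with a level 4.75-fold that of WT aortas. Of the 15077 genes tested, 0.464% passed, 0.371% as higher and 0.0929% as lower in ApoE-/- mice. At an unadjusted p under 0.05, 6 members were higher and 0 lower, where 7.19% and 4.17% of all genes tested were. The CPM of all ApoE-/- mice exceeded those of all WT mice for *Cybb*, *Ncf1*, *Ncf4*, *Rac2* and *Nos2*, that is 5 of the 9 members, and 5.41% of the genes tested separated in this way. The opposite separation was found in 0 members and in 3.3% of genes. *Cyba*, *Nox4* and *Xdh* overlapped between genotypes, and *Nox1* was removed by the filter on low counts. DESeq2, the tool named in the methods of the study, called the same 5 members that did not overlap as higher and 0 as lower. Of the genes to which it gave an adjusted p, it called 2.84% higher and 1.45% lower. Without ApoE-/- replicate 1, edgeR called 4 members, namely *Cyba*, *Cybb*, *Ncf1* and *Ncf4*. In the same fit its calls over all genes went from 56 to 417 higher and from 14 to 176 lower.

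**Figure D1:**
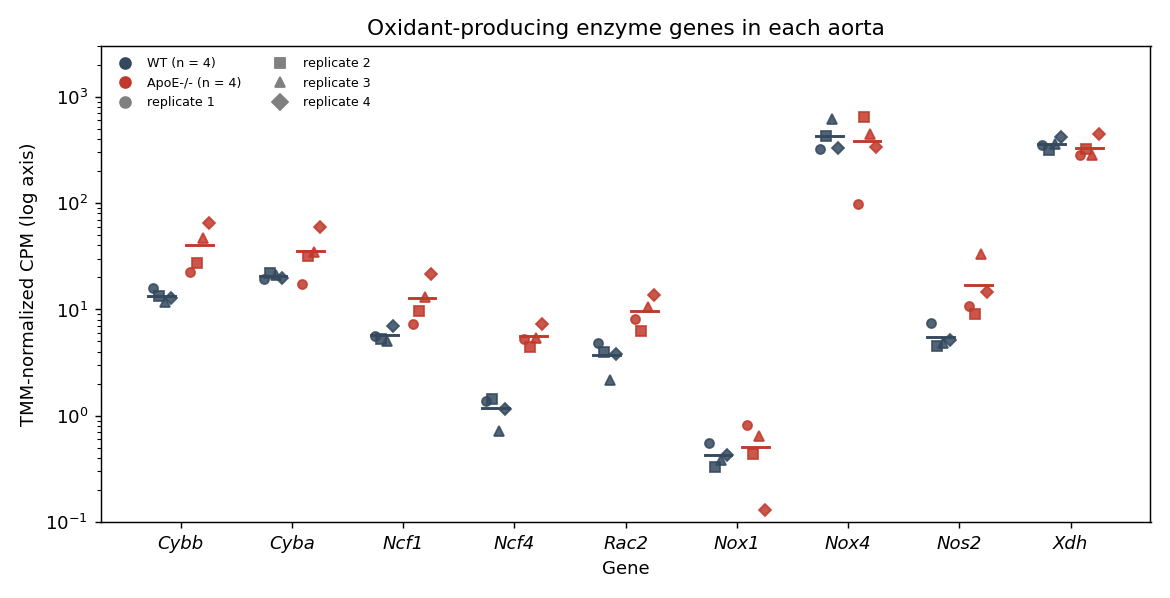
TMM-normalized CPM (log axis) of the 9 oxidant-producing enzyme genes in each of the 8 aortas, with WT in dark blue and ApoE-/- in red, a marker shape for each replicate number and a bar at each group mean. The red points of *Cybb*, *Ncf1*, *Ncf4*, *Rac2* and *Nos2* all lie above the blue ones, and ApoE-/- replicate 1 (red circle) lies lowest for *Nox4*, at 97.6 CPM.

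*Cybb* (ENSMUSG00000015340.10, chromosome X, 9435252 to 9487771 on the minus strand of GRCm38) encodes the catalytic subunit of the phagocyte oxidase. It had 22.6, 27.2, 46.5 and 64.9 CPM in ApoE-/- replicates 1 to 4 and 15.9, 13.4, 11.7 and 12.9 CPM in WT replicates 1 to 4. The WT aortas were close to each other, while the ApoE-/- aortas spread widely above them. The means were 40.3 ± 19.4 CPM (SD, n = 4) and 13.5 ± 1.75 CPM, a difference of 1.58 ± 0.33 on the log2 scale (SE). In edgeR the adjusted p was 0.0787, above the threshold, and it was 0.0147 without ApoE-/- replicate 1 (1.78 on the log2 scale). DESeq2 gave an adjusted p of 0.00042 and called *Cybb* whichever mouse was left out.

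Promoters are shown for the catalytic subunits of the phagocyte and the smooth muscle oxidase, because PU.1 (*Spi1*), a transcription factor of myeloid cells, is known to act at the *Cybb* promoter. Promoter windows of 300 bases, from 250 before to 50 after the start site, were taken from RefSeq (GRCm38.p6) for the 5 members matched by symbol. These were *Cybb*, *Cyba*, *Ncf1*, *Nox1* and *Nox4*. Other forms of the PU.1 site than GAGGAA were not searched for. The letters GAGGAA, a form that PU.1 is known to bind, were searched on both strands, and 28.3% of 32851 such windows hold them. Of the 5 windows, those of *Cybb* and *Nox1* held the letters once each and the other 3 did not. In *Cybb* they begin 10 bases into the transcript on the opposite strand and therefore read TTCCTC, and in *Nox1* they begin 23 bases before the start site on the strand of the gene. The first pair of stretches below gives 30 bases with these letters in capitals (chrX:9469295-9469324 and chrX:134111860-134111889, both minus strand). The second pair gives the 250 bases before the start site of *Cybb* (chrX:9469325-9469574, minus strand) and of *Nox4* (chr7:87246399-87246648, plus strand), which hold no match to GAGGAA on either strand. The RefSeq start sites of *Cybb*, *Nox1* and *Nox4* lie inside the gene coordinates given here, which come from GENCODE. The stretches thus lie before the RefSeq start site and not before the whole gene.
Cybb, first 30 transcribed bases: tgttttcatTTCCTCatcagaagaagaagc
Nox1, 30 bases around the match: ttccgtttagacGAGGAAggcagaatatac
Cybb, upstream: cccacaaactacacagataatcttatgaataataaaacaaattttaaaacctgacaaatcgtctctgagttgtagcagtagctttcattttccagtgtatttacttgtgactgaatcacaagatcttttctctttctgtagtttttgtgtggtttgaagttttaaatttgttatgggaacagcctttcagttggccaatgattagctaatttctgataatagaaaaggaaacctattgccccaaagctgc
Nox4, upstream: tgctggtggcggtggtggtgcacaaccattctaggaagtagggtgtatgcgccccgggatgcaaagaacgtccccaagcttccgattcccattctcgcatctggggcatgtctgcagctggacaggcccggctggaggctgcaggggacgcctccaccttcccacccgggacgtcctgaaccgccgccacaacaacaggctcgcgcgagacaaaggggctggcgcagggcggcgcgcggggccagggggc
The upstream stretches differ in base composition. That of *Cybb* holds 34.0% G and C and that of *Nox4* 67.2%, where the median of all stretches of this length is 52.4%. A match of letters is a description and not a binding site.

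The likeness of patterns was measured as the root mean square difference of log2 CPM over the 8 libraries after subtracting the mean of each gene. It was 0.0961 for *Spi1* against *Cybb*, the smallest of all genes, where the median over 15076 genes was 0.897 and *Cybb* itself deviated by 0.851 from its mean. *Spi1* had 6.66, 7.92, 11.0 and 17.6 CPM in ApoE-/- replicates 1 to 4 and 2.94 to 4.36 CPM in WT mice, the same order of ApoE-/- mice as *Cybb*. The next genes were *Cd300a*, an inhibitory receptor of leukocytes (0.114), *Nckap1l*, an actin regulator of blood cells (0.116), *Pik3r5*, a regulatory subunit of phosphoinositide 3-kinase gamma (0.118), and *AB124611* (0.126). Whether PU.1 acts on *Cybb* in these aortas was not tested, nor was the part of leukocyte content in this likeness.

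*Cyba* (ENSMUSG00000006519.11, chromosome 8, 122424776 to 122432930) encodes p22phox, the membrane partner of NOX2 and of NOX4. It had 17.2, 31.6, 34.5 and 59.2 CPM in ApoE-/- replicates 1 to 4 and 19.2, 21.9, 21.1 and 19.9 CPM in WT replicates 1 to 4. Replicate 1 of the ApoE-/- mice lay under every WT mouse and the other 3 lay above every WT mouse. The genotypes differed by 0.80 ± 0.32 on the log2 scale (edgeR, adjusted p = 0.382), and without ApoE-/- replicate 1 by 1.03 (adjusted p = 0.0407). Its locus overlaps *Gm20388* on the opposite strand.

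The cytosolic organizer *Ncf1* (ENSMUSG00000015950.13, chromosome 5, 134220053 to 134229625), which carries the oxidase signal to the membrane, had 7.27, 9.66, 13.0 and 21.4 CPM in ApoE-/- replicates 1 to 4. The WT replicates had 5.60, 5.24, 5.10 and 6.94 CPM. The groups did not overlap, but the lowest ApoE-/- and the highest WT value lay close together. The difference of 1.16 ± 0.32 log2 units had an adjusted p of 0.169 in edgeR. It was 1.36 without ApoE-/- replicate 1 (adjusted p = 0.0354). DESeq2 gave an adjusted p of 0.0262, and its call was kept in 2 of the 8 fits that left out 1 mouse, those without ApoE-/- replicate 1 or 2. Its locus overlaps *Gtf2ird2* on the opposite strand.

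*Ncf4* (ENSMUSG00000071715.12, chromosome 15, 78244801 to 78262580), whose p40phox protein binds a phosphoinositide of phagosome membranes, rose in ApoE-/- aortas. The ApoE-/- libraries counted 130, 101, 124 and 170 read pairs, in the order of the replicates, and the WT libraries 30, 31, 13 and 24. In CPM these were 5.28, 4.42, 5.40 and 7.38 against 1.38, 1.45, 0.720 and 1.15. The lowest ApoE-/- value lay well above the highest WT value. The means of 5.62 ± 1.25 CPM (SD, n = 4) and 1.17 ± 0.33 CPM differed by 2.25 ± 0.28 on the log2 scale (edgeR, adjusted p = 0.0355, rank 15 of all genes by p). The call was lost when any 1 mouse was left out, except ApoE-/- replicate 1. Over these 8 fits the log2 fold change stayed within 2.08 to 2.37 and the adjusted p within 0.00871 to 0.149, and DESeq2 called it in all 8 fits.

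*Rac2* (ENSMUSG00000033220.7, chromosome 15, 78559167 to 78572783) encodes the Rac GTPase of blood cells that switches the oxidase on. It had 8.08, 6.30, 10.5 and 13.8 CPM in ApoE-/- replicates 1 to 4 and 4.82, 4.03, 2.16 and 3.78 CPM in WT replicates 1 to 4. Every ApoE-/- value exceeded every WT value. A difference of 1.38 ± 0.32 log2 units had an adjusted p of 0.103 in edgeR and of 0.00232 in DESeq2, which called *Rac2* whichever mouse was left out. Its widely expressed relative *Rac1*, which can take the same place in the oxidase, had 123 to 143 CPM in ApoE-/- and 121 to 132 CPM in WT aortas. Per kb of exon, the level of *Rac1* was 7.16 to 13.5 times that of *Rac2* in ApoE-/- aortas and 17.4 to 40.6 times in WT aortas, without overlap.

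The subunits of this complex had fitted differences from 0.80 for *Cyba* to 2.25 for *Ncf4* on the log2 scale, whose inequality was not tested. Per kb of exon, *Ncf4* made up 4.71% to 10.4% of the summed level of *Cybb*, *Cyba*, *Ncf1* and *Ncf4* in ApoE-/- aortas and 1.48% to 2.91% in WT aortas. The share of *Cyba* was 66.1% to 76.2% against 78.9% to 84.3%. Neither share overlapped between the genotypes. The share of *Cybb* was 11.7% to 16.9% against 8.41% to 11.7%, nearly touching, and that of *Ncf1* overlapped, at 6.61% to 7.92% against 5.60% to 7.96%.

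The markers of macrophages moved with these genes. All 12 macrophage markers had a positive log2 fold change, 11 of them did not overlap between genotypes, and edgeR called 1 of them, *Fcgr1*. Over all 15077 genes tested, 8747 had a positive value, 5.41% did not overlap with ApoE-/- higher and 0.371% were called higher. Their summed level was 505 to 2144 CPM in ApoE-/- and 397 to 472 CPM in WT aortas. The mean log2 CPM of the list was 4.62, 5.31, 5.61 and 6.37 in ApoE-/- replicates 1 to 4 and 3.81 to 4.21 in WT mice. The order of the ApoE-/- mice was that of *Cybb*, *Cyba* and *Ncf1*. Relative to this score, *Cybb* lay at −0.54 to −0.07 log2 units in ApoE-/- and −0.43 to −0.21 in WT aortas. Its means differed by 0.03, and by −0.02 without ApoE-/- replicate 1. *Rac2* overlapped as well, at −2.63 to −1.59 against −2.64 to −1.91, with means that differed by −0.06 log2 units and by −0.28 without ApoE-/- replicate 1. *Ncf1* lay lower relative to the markers in ApoE-/- aortas, at −2.02 to −1.74 against −1.70 to −1.31. The relative values of *Cyba* were −0.51 to −0.32 against 0.06 to 0.59, again without overlap. *Ncf4* lay at −3.47 to −2.20 against −4.11 to −3.44, which overlapped slightly. Its mean was 0.77 log2 units higher in ApoE-/- aortas, and 0.50 without ApoE-/- replicate 1. Relative to the score of 6 general leukocyte markers instead, the mean differences were −0.16 for *Cybb*, −0.25 for *Rac2*, −0.57 for *Ncf1*, −0.95 for *Cyba* and 0.58 for *Ncf4*. The sign for *Cybb* thus depended on the reference and, for the macrophage score, on ApoE-/- replicate 1. With the leukocyte score, *Cyba* and *Ncf1* again did not overlap between genotypes, and the others did. These differences were not tested.

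**Figure D2:**
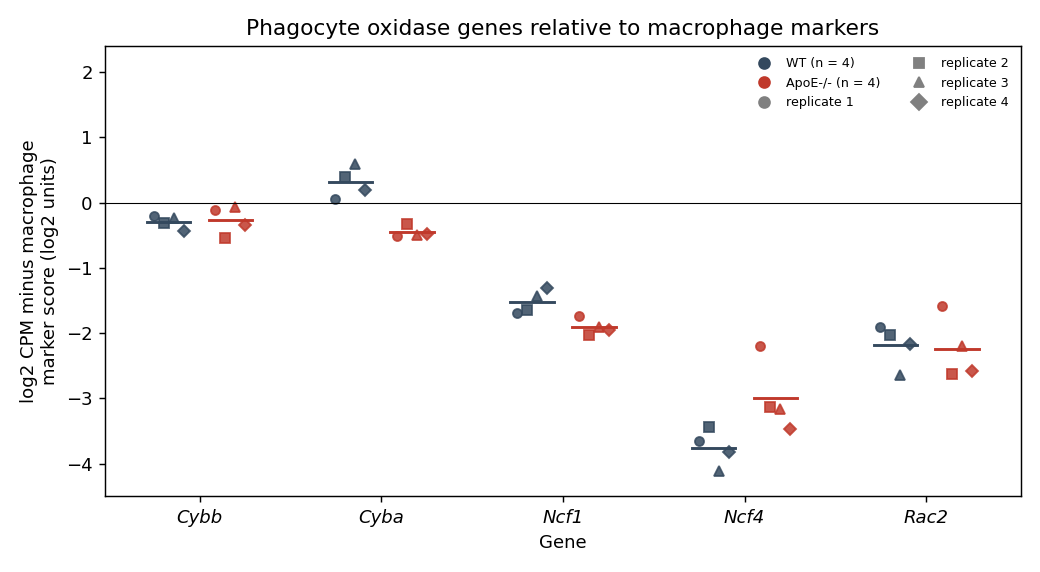
Difference between the log2 CPM of each phagocyte oxidase gene and the macrophage marker score (mean log2 CPM of 12 markers) in each aorta, in log2 units, with WT in dark blue, ApoE-/- in red, a marker shape for each replicate number and a bar at each group mean. *Cybb* and *Rac2* have group means close to each other, *Cyba* and *Ncf1* have ApoE-/- below WT, and *Ncf4* has overlapping groups with ApoE-/- higher by 0.77 on average (0.50 without replicate 1, the highest point).

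Neutrophils are rich in the same oxidase. Of 11 neutrophil markers, 3 passed the filter on low counts, and edgeR called 1 of these, *Csf3r*, which macrophages also express. *S100a9*, which monocytes also express, had 1.01 to 3.60 CPM in ApoE-/- and 0.383 to 0.459 CPM in WT aortas (2.25 ± 0.45 log2 units, edgeR adjusted p = 0.0696), and DESeq2 called it (adjusted p = 0.00122). *S100a8*, which the filter removed, had 0.392 to 2.78 CPM and 0.144 to 0.374 CPM, and DESeq2 called it as well (adjusted p = 0.0438). *Elane*, the remaining tested marker, overlapped at 0.218 to 1.69 CPM and 0.749 to 1.58 CPM (−0.44 ± 0.55 log2 units, edgeR adjusted p = 0.839). The remaining markers were removed by the filter and overlapped between genotypes. *Cxcr2* had 0.219 to 0.868 CPM in ApoE-/- and 0.0468 to 0.229 CPM in WT aortas, *Retnlg* 0.131 to 0.738 and 0.0957 to 0.277 CPM, *Ngp* 0.131 to 0.304 and 0 to 0.144 CPM, *Ltf* 0.203 to 0.304 and 0.187 to 0.688 CPM, and *Camp* 0 to 0.175 and 0 to 0.166 CPM. *Ly6g* and *Mpo* had at most 0.0468 CPM in any library. The summed level of the list was 8.45 to 19.2 CPM in ApoE-/- and 3.71 to 5.32 CPM in WT aortas. The median log2 fold change of the markers tested was 1.75 for leukocytes in general, 0.69 for T cells, 1.20 for B cells, 0.87 for fibroblasts, −0.07 for contractile smooth muscle, −0.37 for endothelium, −0.52 for adipocytes and −2.61 for heart muscle, beside 0.05 for all genes tested. Their part in the results was not tested.

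*Nox4* (ENSMUSG00000030562.17, chromosome 7, 87246096 to 87398710), the oxidase subunit of smooth muscle, had 97.6, 639, 450 and 340 CPM in ApoE-/- replicates 1 to 4. In WT replicates 1 to 4 it had 322, 430, 619 and 332 CPM. The genotypes overlapped, and ApoE-/- replicate 1 lay far under the other 7 aortas. The fitted difference was −0.16 ± 0.50 log2 units (edgeR, adjusted p = 0.951). It turned to 0.17 without ApoE-/- replicate 1 and to 0.08 without WT replicate 3, and neither value passed the threshold. Relative to the smooth muscle score, *Nox4* lay at −1.80 to −1.27 log2 units in ApoE-/- and −1.70 to −1.25 in WT aortas, where ApoE-/- replicate 1 no longer stood apart, at −1.80 beside −1.69 in replicate 3. The genes with the pattern most like *Nox4* were *Sema3d*, a secreted semaphorin (root mean square difference 0.140), *Agtr1b*, an angiotensin II receptor (0.147), and *Rock1*, a kinase of smooth muscle contraction (0.171). They were followed by *Csrp2*, a LIM protein of smooth muscle (0.185), and *Itga8*, an integrin of smooth muscle (0.195). The median over 15076 genes was 0.852.

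*Nox1* (ENSMUSG00000031257.14, chromosome X, 134086421 to 134221956) was near the limit of detection. In the order of the replicates, 20, 10, 15 and 3 read pairs were counted in ApoE-/- aortas and 12, 7, 7 and 9 in WT aortas. The filter on low counts removed it, and without this filter the difference was 0.25 ± 0.50 log2 units (edgeR, adjusted p = 0.903). DESeq2 gave an adjusted p of 0.973. No difference was detected. The locus overlaps *Xkrx* on the same strand and *Arl13a* and *Cstf2* on the opposite strand.

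Levels of different genes were compared as CPM per kb of exon. In WT aortas *Nox4* (38.0 to 73.1 CPM per kb) and *Xdh* (34.0 to 45.8) were highest, with overlapping ranges, followed by *Cyba* (18.5 to 21.1) and then *Cybb* (2.02 to 2.73). *Ncf1* (1.39 to 1.90), *Nos2* (1.02 to 1.70) and *Rac2* (0.696 to 1.55) overlapped with each other, *Ncf4* (0.357 to 0.718) overlapped with *Rac2* alone among these, and *Nox1* was lowest (0.0991 to 0.167). In ApoE-/- aortas the ranges of *Nox4* (11.5 to 75.4), *Xdh* (30.7 to 48.1) and *Cyba* (16.6 to 56.9) overlapped. Those of *Cybb* (3.89 to 11.2), *Nos2* (2.06 to 7.47), *Ncf1* (1.98 to 5.83), *Rac2* (2.03 to 4.43) and *Ncf4* (2.19 to 3.65) came next. Neighbours in this order overlapped, *Cybb* and *Ncf4* did not, and *Nox1* (0.0394 to 0.245) stayed lowest.

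The phagocyte and the smooth muscle oxidase were set against each other within each aorta. On this scale the level of *Nox4* was 2.96, 16.1, 6.64 and 3.59 times that of *Cybb* in ApoE-/- replicates 1 to 4 and 13.9, 22.0, 36.1 and 17.7 times in WT replicates 1 to 4. The ranges overlapped through ApoE-/- replicate 2 and WT replicate 1, and *Nox4* exceeded *Cybb* in each of the 8 aortas. Of the summed level of *Nox1*, *Nox4*, *Cybb* and the dual oxidases *Duox1* and *Duox2*, *Cybb* held 23.7%, 5.75%, 12.8% and 21.2% in ApoE-/- replicates 1 to 4 and 2.63% to 6.48% in WT mice. *Nox4* held 70.1% to 92.6% and 90.1% to 95.1%, respectively. The largest *Cybb* share, in ApoE-/- replicate 1, came with the lowest *Nox4* level, and in replicate 4 it came with the highest *Cybb* level.

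**Figure D3:**
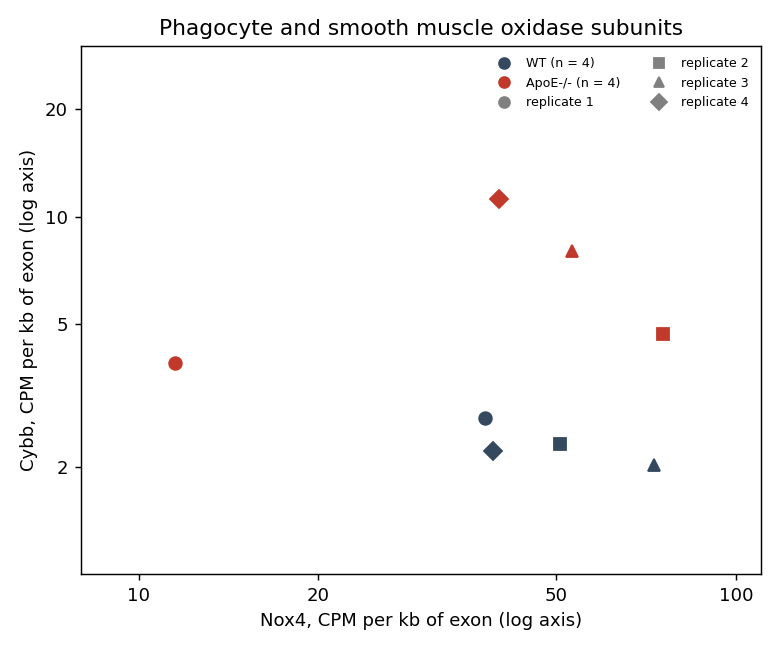
Level of *Cybb* against that of *Nox4* in each aorta, both as CPM per kb of exon on log axes, with WT in dark blue, ApoE-/- in red and a marker shape for each replicate number. The ApoE-/- aortas lie above the WT aortas on the *Cybb* axis (3.89 to 11.2 against 2.02 to 2.73), and on the *Nox4* axis the genotypes share a range apart from ApoE-/- replicate 1 at 11.5.

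*Nos2* (ENSMUSG00000020826.9, chromosome 11, 78920787 to 78960254), which makes NO from arginine after inflammatory signals, had 10.7, 9.10, 33.0 and 14.6 CPM in ApoE-/- replicates 1 to 4. The WT replicates had 7.48, 4.49, 4.88 and 5.22 CPM. No values overlapped, and the highest was in ApoE-/- replicate 3, not in replicate 4 as for the phagocyte oxidase genes. The means of 16.9 ± 11.0 CPM (SD, n = 4) and 5.52 ± 1.34 CPM differed by 1.61 ± 0.42 log2 units, with an adjusted p of 0.142 in edgeR and of 0.00776 in DESeq2. Without ApoE-/- replicate 3 the difference was 1.06 log2 units. DESeq2 called *Nos2* in 5 of the 8 fits that left out 1 mouse, losing it without WT replicate 2, 3 or 4, and edgeR in 0 of 8.

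The constitutive synthases were different in level. Endothelial *Nos3* had 71.3 to 127 CPM in ApoE-/- and 120 to 146 CPM in WT aortas (−0.35 ± 0.19 log2 units, edgeR adjusted p = 0.578), and neuronal *Nos1* had 2.47 to 4.99 CPM and 2.52 to 3.78 CPM (0.36 ± 0.26, adjusted p = 0.728). Per kb of exon, the level of *Nos3* was 7.10, 14.6, 3.14 and 9.24 times that of *Nos2* in ApoE-/- replicates 1 to 4 and 17.2 to 31.9 times in WT mice. Endothelial synthase RNA thus exceeded inducible synthase RNA in all 8 aortas, by a smaller factor in each ApoE-/- aorta. The endothelial marker score, the mean log2 CPM of 9 genes, was at most 7.40 in ApoE-/- (mean 7.16) and 7.48 to 7.59 in WT aortas (mean 7.54), without overlap. Of the 9 genes edgeR called 0 and DESeq2 called 3 as lower (*Cdh5*, *Kdr* and *Emcn*), with 5 lower and 0 higher at an unadjusted p under 0.05. Over all genes, DESeq2 called 1.45% lower, and 4.17% were lower and 7.19% higher by unadjusted p in edgeR. The part of the endothelial markers in the *Nos3* values was not tested.

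*Xdh* (ENSMUSG00000024066.9, chromosome 17, 73883895 to 73950196) had 284, 324, 282 and 441 CPM in ApoE-/- replicates 1 to 4 and 353, 312, 358 and 420 CPM in WT replicates 1 to 4. The genotypes overlapped over most of their range. The difference of −0.12 ± 0.18 log2 units (edgeR, adjusted p = 0.873) stayed within −0.28 to −0.04 when any 1 mouse was left out of the edgeR fit. Its locus overlaps *CT025731.2* on the same strand. Summed endothelial markers were 1654 to 2572 CPM in ApoE-/- and 2352 to 2891 CPM in WT aortas, and the summed markers of adipocytes, which also express *Xdh*, were 1959 to 7131 CPM and 4568 to 9256 CPM. The endothelial score, which did not overlap, is the one given beside *Nos3*, and the part of either list in the *Xdh* values was not tested.

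The other genes of these pathways were read from 4 lists of 49 genes, of which 41 were tested. edgeR called 1 of them higher and 0 lower in ApoE-/- aortas, DESeq2 called 7 higher and 0 lower, and limma-voom called 0 in either direction. By unadjusted p under 0.05, 9 were higher and 0 lower. Over all genes these shares were 0.371% and 0.0929% in edgeR, 2.84% and 1.45% in DESeq2, and 7.19% and 4.17% by unadjusted p, higher and lower in turn. The median log2 fold change was 0.21 over the 41 genes and 0.05 over all genes tested. Without ApoE-/- replicate 1, edgeR called 7 of the pathway genes higher and 0 lower. In that fit it called 417 higher and 176 lower over all genes.

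Genes that switch on the phagocyte oxidase held most of these differences. All 8 tested genes of this list had a positive log2 fold change (median 1.09), 5 of them did not overlap between genotypes, and edgeR called 1, *Vav1*. Over all 15077 genes tested, 8747 had a positive value and 5.41% did not overlap with ApoE-/- higher. The median of 1.09 lay below the 1.62 of the macrophage markers and the 1.75 of the general leukocyte markers. The part of leukocyte content in the values of this list was not tested. The positive value of *Pak1* (0.72) came with 50.7 CPM in ApoE-/- replicate 1, where the other ApoE-/- mice had 6.47 to 12.9 CPM and WT mice 8.42 to 15.4 CPM. *Vav1*, which loads Rac with GTP in blood cells, had 8.40 to 21.5 CPM in ApoE-/- and 2.88 to 4.73 CPM in WT aortas (1.94 ± 0.30 log2 units, edgeR adjusted p = 0.0462). Its call in edgeR was lost when any 1 mouse other than ApoE-/- replicate 1 was left out (adjusted p up to 0.182), and DESeq2 kept it in all 8 such fits. *Dock2*, another activator of Rac in leukocytes, had 35.5 to 57.7 CPM against 14.3 to 21.8 CPM (1.19 ± 0.20, adjusted p = 0.0526 in edgeR and 0.0159 without ApoE-/- replicate 1). *Hvcn1*, the proton channel that balances the charge the oxidase moves, had 2.80 to 7.94 CPM against 1.24 to 2.20 CPM (1.40 ± 0.37, adjusted p = 0.145 in edgeR and 0.0487 without ApoE-/- replicate 1). *Mpo*, the peroxidase of neutrophil granules, had at most 1 count in any library.

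Among 12 partners of the NADPH oxidases, 9 were tested and edgeR called 0. At an unadjusted p under 0.05, 1 was higher and 0 lower, beside 7.19% and 4.17% of all genes tested. The higher gene, which DESeq2 called, was *Sh3pxd2b* (Tks4), a scaffold that links NADPH oxidases to podosomes. It had 115 to 171 CPM in ApoE-/- and 57.5 to 72.4 CPM in WT aortas (0.95 ± 0.16 log2 units, edgeR adjusted p = 0.0523, and 0.016 without ApoE-/- replicate 1). *Cybc1*, a chaperone of the membrane pair of the phagocyte oxidase, had 24.8 to 29.3 CPM and 20.6 to 25.5 CPM (0.23 ± 0.11, edgeR adjusted p = 0.462). *Rac1* differed by 0.03 ± 0.09 log2 units (edgeR, adjusted p = 0.949), a value whose sign changed with upper-quartile scaling (−0.0055) and without ApoE-/- replicate 4 (−0.015).

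Of 16 genes for NO synthases, their substrate and their cofactor, 15 were tested and edgeR and DESeq2 called 0. At an unadjusted p under 0.05, 1 was higher and 0 lower, a share near the 7.19% of all genes tested that were higher. This was *Slc7a1*, an arginine transporter (41.3 to 87.4 CPM against 38.3 to 41.8 CPM, 0.67 ± 0.21 log2 units, edgeR adjusted p = 0.244).

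Of 10 genes of purine breakdown and the molybdenum cofactor of xanthine oxidoreductase, 9 were tested and edgeR called 0. At an unadjusted p under 0.05, 2 were higher and 0 lower, beside 7.19% and 4.17% of all genes tested. *Gda*, guanine deaminase, which makes xanthine, had 125 to 208 CPM in ApoE-/- and 73.5 to 113 CPM in WT aortas (0.74 ± 0.21 log2 units, edgeR adjusted p = 0.186), and DESeq2 called it (adjusted p = 0.049). The DESeq2 call was kept in 2 of the 8 fits that left out 1 mouse, those without ApoE-/- replicate 1 or WT replicate 4 (adjusted p up to 0.256). *Nt5e*, an ectonucleotidase that makes adenosine, had 18.3 to 39.6 CPM against 13.9 to 19.6 CPM (0.76 ± 0.23, edgeR adjusted p = 0.21, and 0.0243 without ApoE-/- replicate 1).

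**Figure D4:**
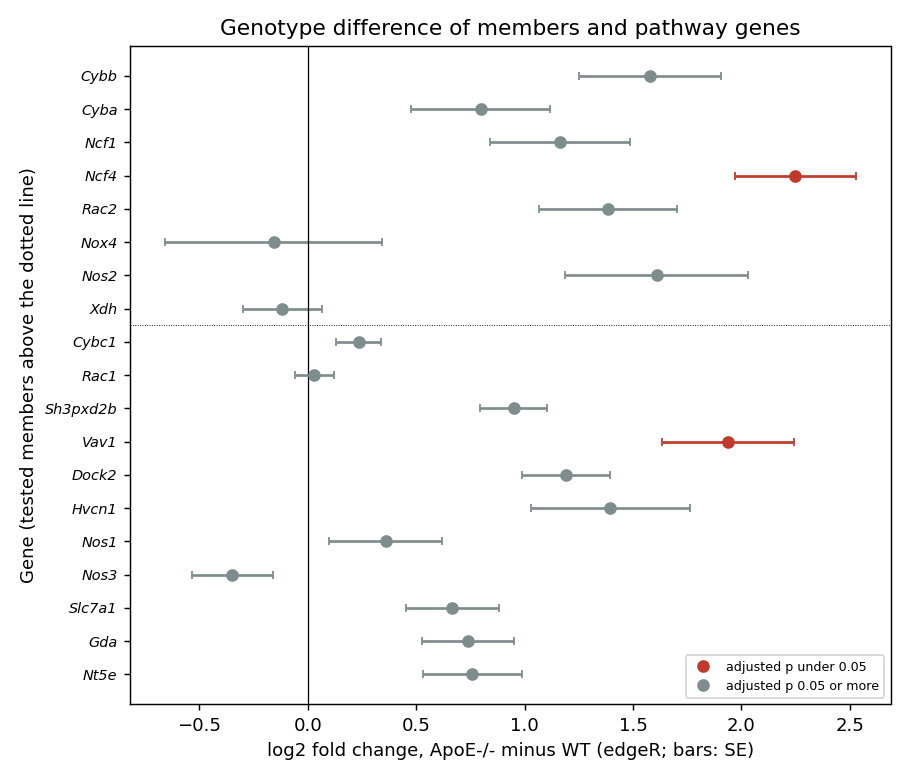
edgeR log2 fold change (ApoE-/- minus WT, 4 mice each) of the 8 tested members, above the dotted line, and of 11 named pathway genes, with bars for the SE and red for an adjusted p under 0.05. *Ncf4* (2.25) and *Vav1* (1.94) are red, the other phagocyte oxidase genes and *Nos2* lie between 0.80 and 1.61, and *Nox4*, *Xdh* and *Rac1* lie near 0.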

How the data were processed

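Whole aortas of 4 ApoE-/- and 4 WT mice gave 1 RNA library each. The values deposited by the authors are raw counts of read pairs per gene, strand-specific and not normalized. The submitters' processing notes name TopHat2, HTSeq and GRCm38/mm10, with versions not given in the sources used here. Pairs given to no gene made up 64.4% to 72.1% of a library and were left out.

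Genotypes came from the sample titles. Counts were filtered with filterByExpr, scaled with TMM and tested over 15077 genes with the two-sided quasi-likelihood test of edgeR 4.0.16 (R 4.3.3, robust, Benjamini-Hochberg threshold 0.05). The SE is the log2 fold change over the square root of F, and log2 CPM had a prior count of 2. Exon lengths (union of exons, so a gene with long minor transcripts has a lower level per kb) and coordinates came from GENCODE M21 (GRCm38) for 21817 of 21859 genes, matched by identifier without version. Alternatives were DESeq2 1.42.0, limma-voom (limma 3.58.1), other scalings and filters, no robust estimation, a replicate block and leaving out each mouse, with DESeq2 for the latter added once the data had been seen. Fits were tested on simulated data. The genes named were the members, *Rac1*, *Nos1*, *Nos3*, *Hvcn1*, the 2 smallest p-values among the reported genes of each pathway list, any called gene of these lists and the 5 genes most like *Cybb* or *Nox4*. *Pak1*, *Fcgr1*, *Cdh5*, *Kdr*, *Emcn*, *Ryr2*, the neutrophil markers and the genes under other observations were picked after their values were seen. Some genes of the lists are not reported here. Members and lists were chosen with earlier results of these data known.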

Additional observations from a re-analysis of the deposited data

Results flagged for a closer look

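Dixon's ratio, the gap between an extreme mouse and its nearest neighbour over the range of its group, was computed for 54 groups of 4 values (named genes, ratios and relative values), and 3 of them exceeded the 95% limit, where chance gives 2.7. *Sh3pxd2b* had 57.5 CPM in WT replicate 4 and 70.2 to 72.4 CPM in the other WT mice (ratio 0.856). *Cyba* minus the macrophage score was −0.32 in ApoE-/- replicate 2 and −0.51 to −0.48 in the rest of its group (ratio 0.861). *Nox4* minus the smooth muscle score was −1.70 in WT replicate 1 and −1.28 to −1.25 in the rest of its group (ratio 0.933).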

How the results depend on the processing

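Of the members, edgeR called 1 higher (*Ncf4*), and so did limma-voom, both other scalings, both other filters and the fit without robust estimation. DESeq2 called 5, and leaving out 1 mouse gave 0 to 4 in edgeR and 3 to 6 in DESeq2, the most without ApoE-/- replicate 1 in both. Members lower in ApoE-/- numbered 0 in each fit. With the replicate number as a block 0 members were called (*Ncf4* 2.26 on the log2 scale, adjusted p = 0.125), 0 genes of the pathway lists, and 1 gene in each direction over all genes. The numbers name different mice, and the deviations of same-numbered mice had correlations of −0.448 to 0.316, with 1 of 4 numbers matching best with itself, so they were not taken as pairs.

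Pathway genes called higher were 1 in edgeR, 7 in DESeq2, 0 in limma-voom and 0 with upper-quartile factors (*Vav1* adjusted p = 0.0784 and 0.05). Leaving out 1 mouse gave 0 to 7 in edgeR and 4 to 9 in DESeq2, and 0 were lower in each fit. Over all genes, 56 were called higher and 14 lower. DESeq2 called 477 and 244 and limma-voom 20 and 7, and 9 were lower with at least 10 counts in every library. Leaving out 1 mouse gave 0 to 417 higher and 0 to 176 lower in edgeR, and 301 to 873 and 125 to 675 in DESeq2, where the highest counts in both tools came without ApoE-/- replicate 1. The cause was not tested. The sign turned for *Nox4*, from −0.52 to 0.17 in edgeR and −0.53 to 0.16 in DESeq2 when 1 mouse was left out, and for *Rac1*, −0.0055 with upper-quartile factors and from −0.015 to 0.058 in edgeR and −0.029 to 0.045 in DESeq2 when 1 mouse was left out. *Nox1* entered edgeR only without the filter on low counts.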

Other observations

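Several pathway genes were high in ApoE-/- replicate 1 alone. *Gch1*, the rate-limiting enzyme for the NO synthase cofactor tetrahydrobiopterin, had 128 CPM in this aorta, 6.82 to 18.7 CPM in the other ApoE-/- mice and 13.7 to 30.7 CPM in WT mice. *Qdpr*, which regenerates this cofactor, had 72.9 CPM there, 25.4 to 40.9 CPM in its group and 27.3 to 43.3 CPM in WT mice. *Asl*, which makes arginine, had 71.4 CPM, against 12.9 to 19.4 CPM and 19.1 to 24.5 CPM. *Pak1*, a kinase downstream of Rac, had 50.7 CPM, against 6.47 to 12.9 CPM and 8.42 to 15.4 CPM. This is the aorta with the lowest levels of *Nox4* and of smooth muscle markers. *Nox3*, the oxidase of the inner ear, had 17 counts in ApoE-/- replicate 3 and at most 2 counts in any other library.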
